A study of Mus musculus with 51 samples.

Results

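This account covers the exposure to 3,4-dehydro-*exo*-brevicomin (DHB), a volatile of male mouse urine, compared with diluent. It rests on 6 pS6-IP-Seq libraries of 51 in the series, chosen by their labelled odorant: 3 from DHB-exposed mice and 3 from their own control mice, read over all 1117 olfactory receptor (OR, *Olfr*) genes in the count table. The mice were C57BL/6J littermates of mixed sex, about 3 weeks old and without a transgene. After a habituation without odor, each mouse received 10 µL of stimulus for 1 hr. This was either DHB at 77% (v/v) in water or diluent alone, and the whole olfactory mucosa was taken. By the methods controls received water or ethanol, and ethanol was the diluent only of other odorants, so that water is the diluent given for DHB. The sample labels do not name it. No other comparison of the series used these 3 control mice. The libraries of replicates 1 and 2 of both groups carry the title prefix 4429 and those of replicate 3 the prefix 4575.

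Each mature olfactory sensory neuron (OSN) transcribes a single OR gene, so that the mRNA of an OR stands for the neurons that chose it. Odor-driven firing leads to phosphorylation of ribosomal protein S6, and an antibody against phosphorylated S6 (pS6) retrieves ribosomes and their mRNA from recently active cells. An OR whose neurons answer the odor therefore takes a larger share of OR reads after exposure than after diluent. ORs fall into class I, in a single cluster on chromosome 7, and the much larger class II, spread over many clusters of related genes. DHB is one of the urinary compounds whose abundance depends on male hormones, and it is known for its roles in male signalling to other mice.

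The libraries held 64000, 121349 and 135686 OR reads in control replicates 1, 2 and 3, and 83824, 135397 and 142652 in DHB replicates 1, 2 and 3. Values are given below as reads or as the share of OR reads of a library, in percent. Reads of other genes were not in the table used here, so the tissue could not be checked against markers of neurons or of other cell types. Read counts of mice within a group differed by more than counting noise (chi-square per degree of freedom between 6.7 and 12.3 over the 6 pairs), and the tests below measure the spread between mice. A larger share in these bulk precipitates may come from more labelled neurons or from more RNA retrieved per neuron, which cannot be told apart.

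Of the 1117 ORs, 1064 had at least 10 reads over the 6 libraries and were tested, and 1016 had a read in every library. Groups were compared by the quasi-likelihood F test of edgeR, p-values were adjusted by Benjamini-Hochberg over the 1064 ORs, and an OR was called at an adjusted p below 0.05. After DHB 6 ORs were higher, which is 0.564% of those tested: *Olfr205*, *Olfr206*, *Olfr1353*, *Olfr204*, *Olfr46* and *Olfr531*. No OR was called lower (0 of 1064, 0%). At an unadjusted p below 0.05 there were 24 higher and 14 lower ORs, together 38 of 1064. That is fewer than this threshold would pass on average if no OR had changed. DESeq2 called 8 higher and none lower, as did edgeR with the replicate number as a block. All 6 called ORs belong to class II, as do 950 of the 1064 tested, and each had a higher share in all 3 DHB libraries than in all 3 control libraries, as had 42 of the tested ORs (3.95%). Together they took 0.667%, 0.673% and 0.722% of OR reads in the controls and 2.38%, 2.59% and 2.31% after DHB. The median log2 fold change over the 1064 ORs was 0.01, and for 498 of them (46.8%) the 95% interval lay within 1 log2 unit of 0 on either side.

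Of the 6 called ORs, 3 are neighbouring genes of chromosome 16, *Olfr204*, *Olfr205* and *Olfr206*. They lie on the minus strand of GRCm38 at chr16:59310206-59318248, chr16:59328005-59331138 and chr16:59344675-59349246, with no other annotated gene overlapping them and with the coding sequence in a single exon. *Olfr205* had 48, 75 and 56 reads in the controls and 390, 627 and 707 after DHB. Its share was 0.0594% ± 0.0170 (SD, n = 3) in controls and 0.475% ± 0.0182 (SD, n = 3) after DHB, a log2 fold change of 3.11 (SE 0.29, edgeR adjusted p = 8.68e-07), the lowest p of any OR. The share in the lowest DHB library was 6.17-fold that in the highest control library, and by counting error alone these 2 shares had 95% Wilson intervals of 0.428% to 0.501% and 0.0566% to 0.0994%. *Olfr206* had 43, 42 and 25 reads in controls and 253, 485 and 490 after DHB, and its share went from 0.0401% ± 0.0248 to 0.335% ± 0.0292 (SD, n = 3). Its log2 fold change was 3.23 (SE 0.35, edgeR adjusted p = 6.56e-06). *Olfr204* had 29, 27 and 69 reads in controls and 182, 246 and 276 after DHB, with shares of 0.0395% ± 0.0152 and 0.197% ± 0.0180 (SD, n = 3). It rose by a log2 fold change of 2.43 (SE 0.31, edgeR adjusted p = 4.71e-05). The 3 genes together moved from 0.111% to 0.188% of OR reads in the controls to 0.984%, 1.00% and 1.03% in the DHB libraries, so that the DHB mice lay close to each other and far from every control.

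**Figure D1:**
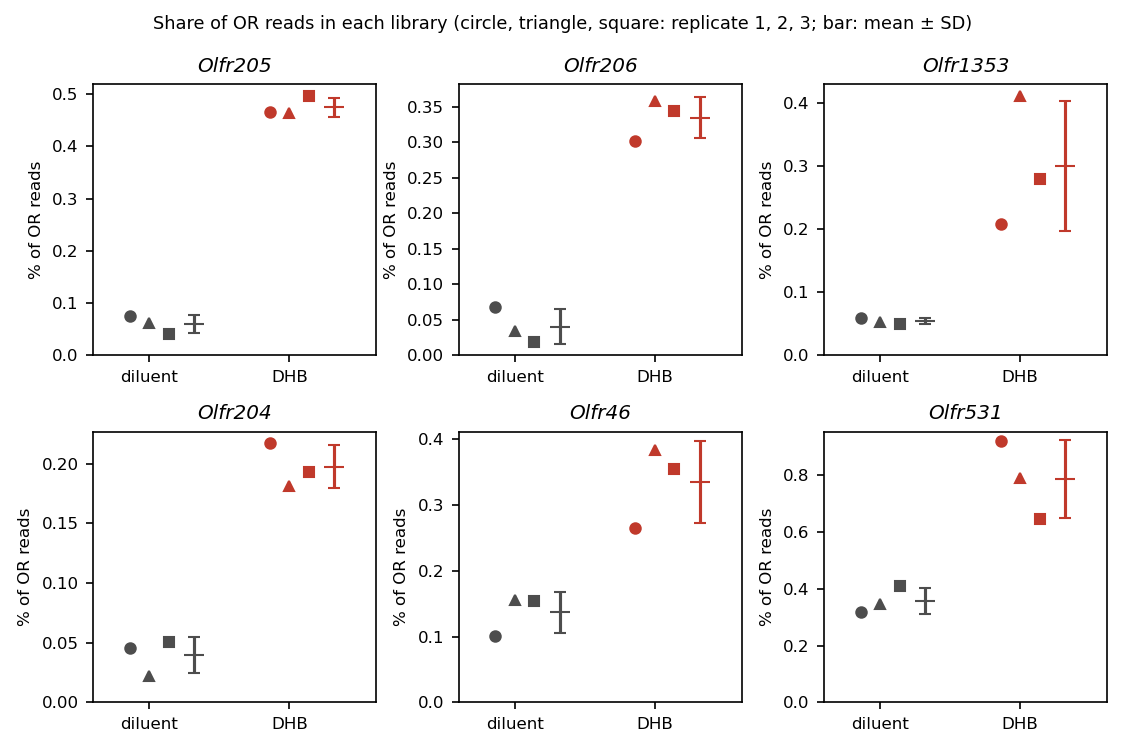
Share of OR reads (%, linear axis from 0) of the 6 called ORs in each control (diluent) and DHB library. Symbols mark replicates 1, 2 and 3, and the bars give the mean ± SD of 3 mice. The groups do not overlap for any of the 6 ORs.

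These 3 receptors are close copies of each other. The translated reading frames of *Olfr204* and *Olfr205* (305 residues each) were 91.8% identical, those of *Olfr204* and *Olfr206* (306 residues) 89.9%, and those of *Olfr205* and *Olfr206* 87.9%. Their coding sequences were 94.2%, 91.3% and 90.2% identical in the same order. Such copies share stretches as long as a read, in which a read cannot be given to a single gene from its sequence. *Olfr206* shares coding runs of at most 74 bases with *Olfr205*, 62 bases with *Olfr204* and 83 bases with *Olfr209*, which was not called. The longest coding stretch shared within the 3 genes is printed because it shows where the counts of *Olfr204* and *Olfr205* are not separate. It runs for 158 bases without a difference in *Olfr204* (chr16:59315137-59315294, minus strand, GRCm38) and *Olfr205* (chr16:59329239-59329396, minus strand), and the 62 bases in capitals are also found in *Olfr206* and in their neighbour *Olfr209*.

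Olfr204 and Olfr205: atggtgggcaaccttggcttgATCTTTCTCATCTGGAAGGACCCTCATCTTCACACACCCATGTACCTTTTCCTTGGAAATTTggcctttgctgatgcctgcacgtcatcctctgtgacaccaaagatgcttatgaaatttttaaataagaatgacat

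Of all exonic stretches of 50 bases, 17.7% in *Olfr205*, 11% in *Olfr204* and 6.99% in *Olfr206* also occurred in another OR, and *Olfr204* held 251 of the 1556 stretches of *Olfr205*. The counting tool divides such reads between genes by estimate, and its part in the 3 values was not tested. The remaining stretches of each gene were found in no other OR. The ratio of *Olfr206* to *Olfr205* reads was 0.896, 0.56 and 0.446 in the controls and 0.649, 0.774 and 0.693 after DHB, and the ratio of *Olfr204* to *Olfr205* was 0.604, 0.36 and 1.23 against 0.467, 0.392 and 0.390. Both ratios overlapped between the groups.

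The sequences before the annotated 5′ ends of the rising copies and of *Olfr209* were compared because the 4 genes are adjacent and 3 of them were called. Over 250 bases, the windows of *Olfr204*, *Olfr205* and *Olfr206* were 59.0% to 66.9% identical to each other, the window of *Olfr209* was 59.5% to 63.2% identical to them, and those of *Olfr1353*, *Olfr46* and *Olfr531* were 44.4% to 51.1% identical to the 3. The 150 bases nearest to each 5′ end follow, from GRCm38, minus strand, with any TAATTA (a homeodomain core motif, searched on both strands) in capitals. They cover chr16:59318249-59318398, chr16:59331139-59331288, chr16:59349247-59349396 and chr16:59363994-59364143.

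Olfr204: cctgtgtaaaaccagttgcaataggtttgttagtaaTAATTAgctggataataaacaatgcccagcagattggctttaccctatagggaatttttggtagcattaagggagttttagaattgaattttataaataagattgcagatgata
Olfr205: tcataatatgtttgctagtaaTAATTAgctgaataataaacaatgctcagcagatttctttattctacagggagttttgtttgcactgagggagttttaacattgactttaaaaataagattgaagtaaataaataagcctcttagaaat
Olfr206: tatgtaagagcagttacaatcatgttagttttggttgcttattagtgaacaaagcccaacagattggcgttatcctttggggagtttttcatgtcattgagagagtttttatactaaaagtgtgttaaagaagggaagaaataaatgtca
Olfr209: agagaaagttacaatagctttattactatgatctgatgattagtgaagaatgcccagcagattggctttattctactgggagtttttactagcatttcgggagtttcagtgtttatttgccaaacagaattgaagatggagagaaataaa

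TAATTA was in the windows of *Olfr204* and *Olfr205*, at a like place in both, and not in those of *Olfr206* and *Olfr209*. Over the 250-base windows of all 1117 ORs, 253 (22.6%) held it, among them that of the uncalled cluster member *Olfr195* (log2 fold change -0.04). A match describes letters in a window and no binding.

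The rise was uneven within this gene cluster. Of the 12 ORs named *Olfr195* to *Olfr209* in the table, all were tested and 3 were called, where 0.564% of all tested ORs were called. The other 9 had log2 fold changes between -0.04 and 0.96, with a median of 0.32. Over all 12 the median was 0.56, against 0.01 over all tested ORs. The range was chosen with earlier results of these data known, and the 3 called members raise its median. *Olfr209*, next to *Olfr206* and 78.0% identical to the protein of *Olfr205*, had 37, 62 and 69 reads in controls and 125, 103 and 94 after DHB. Its shares did not overlap between the groups, yet its log2 fold change of 0.96 (SE 0.34, 95% interval 0.26 to 1.67) did not pass the test (edgeR adjusted p = 0.959). The upper bound of that interval lay below the lower bounds of *Olfr204* (1.78), *Olfr206* (2.50) and *Olfr205* (2.51). Reads of *Olfr205* per read of *Olfr209* were 1.30, 1.21 and 0.812 in controls and 3.12, 6.09 and 7.52 after DHB, a ratio that needs no scaling between libraries. Since *Olfr205* was picked by its rise and *Olfr209* was not called, a higher ratio after DHB was favoured by the choice. On the other side of the 3 genes, *Olfr203* had a log2 fold change of 0.73 (95% interval -0.15 to 1.61), and the 5 uncalled ORs within 100 kb of any of the 3 ranged from -0.01 to 0.96. *Olfr194*, outside this run of genes and 75.8% identical to *Olfr206*, gave 0.41 (95% interval -0.78 to 1.60).

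**Figure D2:**
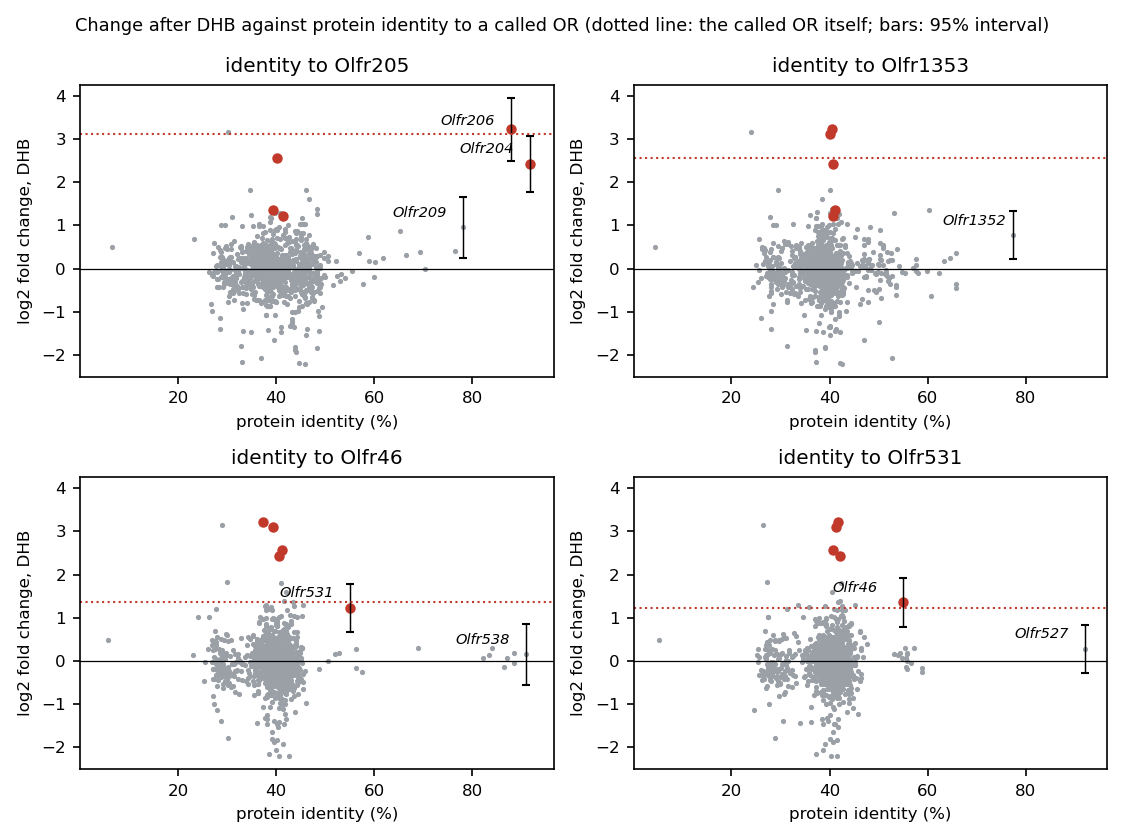
Log2 fold change after DHB (y axis) of each tested OR against the identity of its protein to a called OR (x axis, %), in a panel each for *Olfr205*, *Olfr1353*, *Olfr46* and *Olfr531*. Red points are called ORs, the dotted line is the change of the OR named above the panel, and bars are 95% intervals of the labelled ORs. Receptors at 87.9% and 91.8% identity to *Olfr205* rose with it, while those at 90.9% identity to *Olfr46* and 92.1% to *Olfr531* lay near 0.

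*Olfr1353*, a class II receptor on chromosome 10 (chr10:78963309-78971338, plus strand), was the only other OR with a log2 fold change above 2 among those called. It had 38, 64 and 67 reads in controls and 174, 556 and 398 after DHB. Its share was tight in the controls, at 0.0538% ± 0.0051 (SD, n = 3), and spread in the DHB mice, at 0.299% ± 0.103 (SD, n = 3), with replicate 2 at 0.411% and replicate 1 at 0.208%. The log2 fold change was 2.56 (SE 0.29, edgeR adjusted p = 8.12e-06). None of its 1885 exonic stretches of 50 bases occurred in another of the 1117 ORs. Its protein (309 residues) was 40.1% to 41.2% identical to those of the other called ORs. Its closest relative and near neighbour *Olfr1352*, at 77.3% identity, had 55, 164 and 152 reads in controls and 173, 229 and 239 after DHB. The groups did not overlap for *Olfr1352* either, but its log2 fold change of 0.78 (95% interval 0.22 to 1.34) did not pass the test (edgeR adjusted p = 0.919). The 6 uncalled ORs within 100 kb of *Olfr1353* ranged from -0.37 to 0.78.

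The remaining 2 called ORs, *Olfr46* and *Olfr531*, lie in a class II cluster of chromosome 7, at chr7:140601269-140617678 on the plus strand and chr7:140399045-140402918 on the minus strand. *Olfr46* had 65, 189 and 209 reads in controls and 222, 520 and 507 after DHB, with shares of 0.137% ± 0.0308 and 0.335% ± 0.0622 (SD, n = 3). It rose by a log2 fold change of 1.36 (SE 0.27, edgeR adjusted p = 0.0133). *Olfr531* was already among the better represented ORs in the controls, at 204, 420 and 554 reads, and had 770, 1068 and 922 after DHB. Its share went from 0.358% ± 0.0459 to 0.785% ± 0.136 (SD, n = 3), a log2 fold change of 1.23 (SE 0.27, edgeR adjusted p = 0.0333). The 2 proteins were 55.0% identical.

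Both had close copies nearby that did not pass the test. *Olfr527*, 92.1% identical to *Olfr531*, had 139, 385 and 523 reads in controls and 306, 465 and 494 after DHB, with a log2 fold change of 0.28 (95% interval -0.28 to 0.84). Reads of *Olfr531* per read of *Olfr527* were 1.47, 1.09 and 1.06 in controls and 2.52, 2.30 and 1.87 after DHB, without overlap. *Olfr538*, 90.9% identical to *Olfr46*, had 25, 46 and 65 reads in controls and 45, 41 and 69 after DHB, with a log2 fold change of 0.16 (95% interval -0.55 to 0.87). Reads of *Olfr46* per read of *Olfr538* were 2.60, 4.11 and 3.21 in controls and 4.93, 12.7 and 7.35 after DHB, again without overlap. Both ratios set an OR picked by its rise over a relative that was not called. That choice favoured a lack of overlap, and the ratios are no further test. The 7 uncalled ORs within 100 kb of *Olfr46* ranged from -0.13 to 0.31, and the 8 near *Olfr531* from -0.25 to 0.28.

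The calls were not equally firm. *Olfr205*, *Olfr206*, *Olfr1353* and *Olfr204* stayed past the threshold when any 1 library was left out and in each of the other settings tried, with log2 fold changes of at least 2.87, 2.84, 2.28 and 2.15. *Olfr46* did not pass without control replicate 1 (log2 fold change 1.17, adjusted p = 0.0727 in edgeR), control replicate 3 (1.43, adjusted p = 0.1) or DHB replicate 2 (1.26, adjusted p = 0.121). *Olfr531* did not pass without any 1 of the 5 libraries other than DHB replicate 3 (edgeR adjusted p from 0.125 to 0.222, log2 fold change 1.03 to 1.32), nor in the fit of all 51 libraries (1.24, adjusted p = 0.922). Within the title prefix 4429 alone (2 mice a group), the log2 fold changes were 2.87 for *Olfr205*, 2.84 for *Olfr206*, 2.56 for *Olfr1353* and 2.72 for *Olfr204*, each called, while *Olfr46* (1.40, edgeR adjusted p = 0.122) and *Olfr531* (1.46, adjusted p = 0.121) were not. The prefix 4575 holds 1 mouse a group and gives no test; there the log2 ratio of shares was 3.59, 4.22, 2.50 and 1.93 for the first 4 ORs, 1.21 for *Olfr46* and 0.66 for *Olfr531*.

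**Figure D3:**
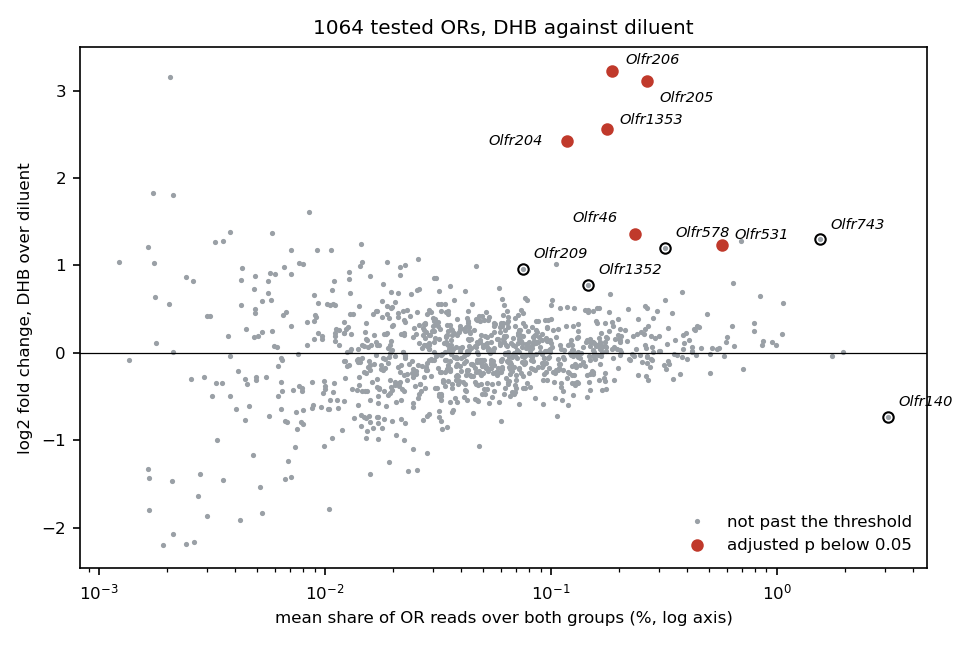
Log2 fold change after DHB (y axis) against the mean share of OR reads over both groups (x axis, %, log axis) for the 1064 tested ORs. Red points are the 6 called ORs, and open circles mark 5 uncalled ORs named in the text. *Olfr205*, *Olfr206*, *Olfr1353* and *Olfr204* stand apart from ORs of like share, whereas large values at the left belong to ORs with few reads.

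Among ORs that did not pass in the main fit, the 12 next higher by p had log2 fold changes between 0.67 and 3.16. In 10 of them all DHB shares lay above all control shares, as in 42 of the 1064 tested ORs (3.95%). The choice by low p favoured such a lack of overlap. *Olfr743* on chromosome 14 had the most reads, 574, 1102 and 1391 in controls and 2662, 2822 and 1719 after DHB. Its share was 0.897%, 0.908% and 1.03% in controls and 3.18%, 2.08% and 1.20% after DHB, so that DHB replicate 3 lay only just above the controls (log2 fold change 1.30, SE 0.33, edgeR adjusted p = 0.129). *Olfr110* on chromosome 17 had a like pattern, at 0.534%, 0.310% and 0.441% in controls and 1.52%, 0.749% and 0.599% after DHB (log2 fold change 1.28, SE 0.34, edgeR adjusted p = 0.155). Without DHB replicate 3 both passed the threshold (log2 fold change 1.59 with edgeR adjusted p = 0.0102 for *Olfr743*, 1.54 with adjusted p = 0.014 for *Olfr110*), and the count of called ORs was 8. Both also passed in the fit with the title prefix as a term (edgeR adjusted p = 0.0189 for *Olfr743* and 0.012 for *Olfr110*) and in DESeq2 (adjusted p = 0.0142 and 0.0471). With the replicate number as a block they passed as well (edgeR adjusted p = 0.000121 and 0.000272). Whether they are called thus depended on the setting. *Olfr285* was more even, at 0.536%, 0.367% and 0.561% against 0.870%, 0.782% and 0.720%, with a log2 fold change of 0.80 (SE 0.27, edgeR adjusted p = 0.813). Others rested on single libraries or few reads. The class I receptor *Olfr578* had 170, 199 and 237 reads in controls and 82, 230 and 1489 after DHB, the last in replicate 3 alone. *Olfr593* had 1 read in the controls and 3, 7 and 3 after DHB.

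The 8 next lower ORs had log2 fold changes between -1.35 and -0.72 with adjusted p of at least 0.959 in edgeR's quasi-likelihood test, and their shares were mostly small. *Olfr792* had 40, 25 and 42 reads in controls and 6, 24 and 21 after DHB (log2 fold change -1.34, SE 0.48). *Olfr951* had 32, 18 and 51 against 12, 19 and 12 (log2 fold change -1.35, SE 0.50). The most abundant OR of the controls, *Olfr140*, had 3.41%, 3.05% and 5.50% of OR reads there and 2.54%, 1.65% and 2.55% after DHB, and its log2 fold change of -0.73 (SE 0.31, 95% interval -1.39 to -0.07) did not pass the test (edgeR adjusted p = 0.994). The other 4 most abundant ORs of the controls, *Olfr536*, *Olfr1384*, *Olfr727* and *Olfr1258*, lay between -0.03 and 0.21.

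Of 120 class I genes, 114 were tested and none was called, where 0.564% of all tested ORs were called. Their median log2 fold change was -0.08, while the 950 tested class II ORs had a median of 0.01. The summed class I share was 10.6%, 7.29% and 8.71% in controls and 6.28%, 7.24% and 10.5% after DHB, and the means of 8.88% and 8.01% did not differ beyond the spread (exact permutation test, two-sided, p = 0.5, where 3 mice against 3 allow no p below 0.1). The effective number of ORs, the inverse Simpson index of the shares, was 221, 200.4 and 167 in controls and 176, 228 and 253 after DHB (exact permutation test, two-sided, p = 0.4).

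A list of 5 ORs with sex-dependent levels, chosen on other samples than these, was also read, and none of the 5 was called after DHB, where 0.564% of all tested ORs were. *Olfr910* had a log2 fold change of -0.18 (95% interval -0.89 to 0.53), *Olfr912* of -0.14 (-0.79 to 0.51) and *Olfr1295* of -0.05 (-0.70 to 0.60). *Olfr1437* gave -0.26 (-0.99 to 0.46) and *Olfr235* 0.37 (-0.30 to 1.04). The median over the 5 was -0.14, against 0.01 over all tested ORs.

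The other 9 odor exposures of the series were read for whether the 6 ORs also rose there. They used β-caryophyllene, (*E*)-β-farnesene, 2,5-DMP, MTMT ((methylthio)methanethiol) at 100 µM and 10 mM, SBT (2-*sec*-butyl-4,5-dihydrothiazole) at 0.01%, 1% and 100%, and CPD (cyclopentadecanone), with 3 mice a group. A single set of 3 controls served (*E*)-β-farnesene, 2,5-DMP and 100 µM MTMT, and another set of 3 served 1% and 100% SBT, so those comparisons are not independent of each other. After CPD, 10 mM MTMT and β-caryophyllene no OR at all was called (0 of 1050, 1054 and 1048 tested). A missing call in those comparisons therefore says little about a single OR. Doses differed between odorants, so the values below are set side by side without ranking the odorants. Since the 6 ORs were picked by their change after DHB, a larger change after DHB than elsewhere was favoured by the choice.

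*Olfr205* took 0.0304% to 0.110% of OR reads in the 27 libraries of the other odorants and 0.0413% to 0.125% in the 21 control libraries of the series, against 0.463% to 0.496% in the 3 DHB libraries. Its log2 fold change in the other comparisons ran from -0.45 (1% SBT) to 0.46 ((*E*)-β-farnesene), and none was called. *Olfr206* was at 0.0153% to 0.158% in the other odorants' libraries, and its largest change elsewhere, 1.42 (SE 0.60) after β-caryophyllene, did not pass the test (edgeR adjusted p = 0.904) with a single mouse at 0.158% and the lowest of the 3 at 0.0332%. *Olfr204* reached at most 0.0844% in the other odorants' libraries. Its largest change elsewhere was 0.87 (SE 0.51) after 1% SBT, with all 3 odor libraries above that comparison's controls. That change did not pass the test (edgeR adjusted p = 0.994). For these 3 receptors no library of another odorant reached the lowest DHB library.

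*Olfr1353* behaved otherwise. After 1% SBT it took 0.294% to 0.454% of OR reads against 0.0341% to 0.103% in that comparison's controls (log2 fold change 2.59, SE 0.46, edgeR adjusted p = 0.0145), and 3 of the 27 libraries of other odorants lay above its lowest DHB library. It was also called after 100% SBT (1.52, SE 0.41, edgeR adjusted p = 0.0285), and after 0.01% SBT its value was 1.38 (SE 0.31, edgeR adjusted p = 0.0747). *Olfr46* and *Olfr531* were called after 100% SBT as well, with log2 fold changes of 1.95 (SE 0.35, edgeR adjusted p = 0.00165) and 1.94 (SE 0.31, edgeR adjusted p = 0.000931). *Olfr46* took 0.339% to 0.366% of OR reads there, and 0.265% to 0.384% after DHB. Over the 21 control libraries *Olfr531* ran from 0.273% to 2.06%, so that none of its DHB libraries lay above all controls of the series. All 3 did so for each of the other 5 called ORs. The highest *Olfr531* control values came from CPD (0.688% to 2.06%) and 10 mM MTMT (1.28% to 1.95%), which share title prefixes found in no other comparison. In the controls of the remaining comparisons *Olfr531* lay at 0.273% to 0.557%, below the 3 DHB libraries (0.646% to 0.919%).

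**Figure D4:**
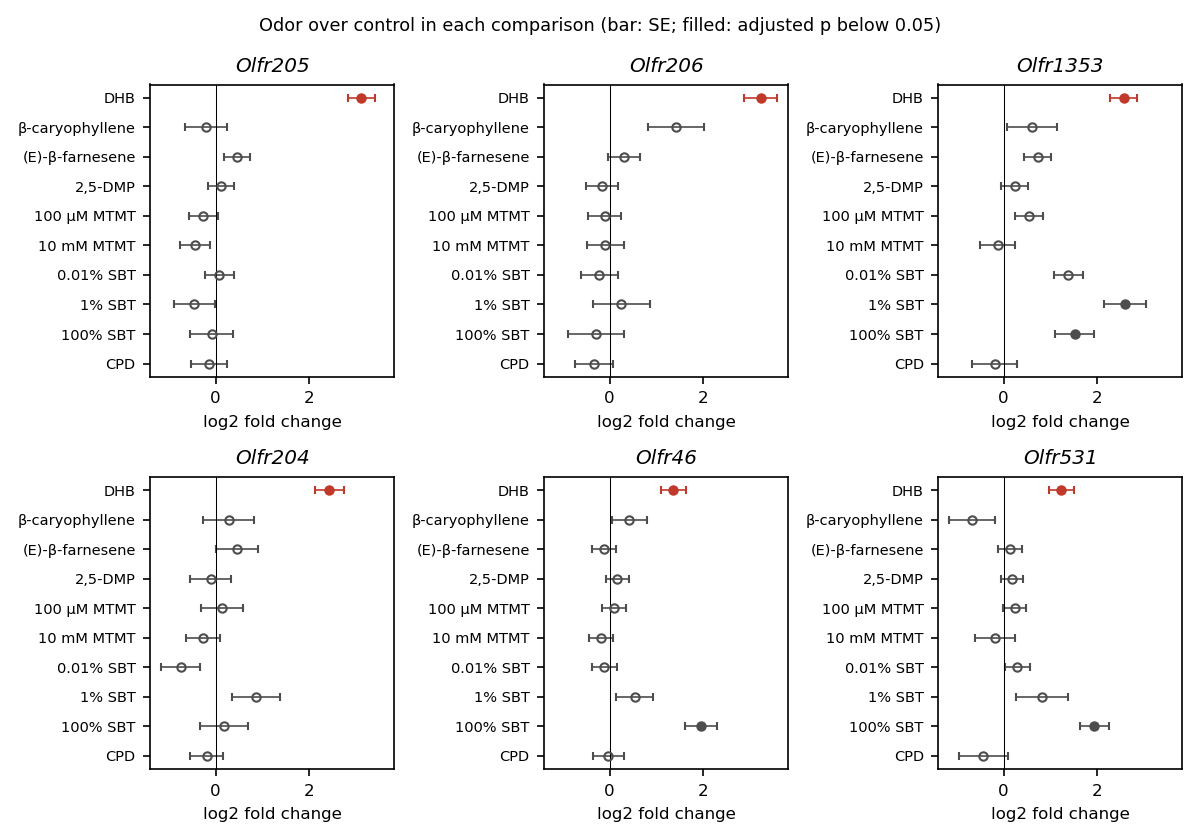
Log2 fold change of the 6 called ORs (x axis, odor over that comparison's controls) in the 10 comparisons of the series (rows), each fitted on its 3 odor and 3 control libraries, with controls shared as the text says. Bars are SE, and filled points passed an adjusted p of 0.05. *Olfr205*, *Olfr206* and *Olfr204* are filled for DHB alone, *Olfr1353* also for 1% and 100% SBT, and *Olfr46* and *Olfr531* also for 100% SBT. No OR of any kind was called after CPD, 10 mM MTMT or β-caryophyllene.

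The difference between the DHB change and each other odorant's change was tested in a single edgeR quasi-likelihood fit of all 51 libraries over 1102 ORs. For *Olfr205* it passed against all 9, with differences of 2.63 to 3.60 on the log2 scale and adjusted p of at most 0.00255. For *Olfr206* it passed against 8, the exception being β-caryophyllene (difference 1.73, SE 0.61, edgeR adjusted p = 0.553). For *Olfr204* it passed against 5, namely CPD, 10 mM MTMT, 2,5-DMP, 0.01% SBT and 100% SBT. For *Olfr1353* it passed against CPD, 10 mM MTMT and 2,5-DMP, and its change after DHB was not distinguishable from that after 1% SBT (difference -0.07, SE 0.55, edgeR adjusted p = 1.00). For *Olfr46* it passed against 10 mM MTMT alone, and for *Olfr531* against none. Over all ORs the share past the threshold was 0.363% against CPD, 1.18% against 10 mM MTMT, 0.0907% against β-caryophyllene, 0.544% against (*E*)-β-farnesene, 0.635% against 2,5-DMP, 0.181% against 100 µM MTMT, 0.454% against 0.01% SBT, 1.18% against 1% SBT and 9.17% against 100% SBT.

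The ORs higher after the other odorants were also read after DHB, where 0.564% of all tested ORs were called. Of the 112 ORs higher after 100% SBT (10.7% of those tested there), 3 were called after DHB, *Olfr1353*, *Olfr46* and *Olfr531*, which is 2.68% of that list and 50% of the DHB list. The median log2 fold change of the 112 after DHB was 0.08. Of the 9 ORs higher after 1% SBT (0.863%), 1 was called after DHB, *Olfr1353* (11.1% and 16.7% of the lists). None of the 19 ORs higher after (*E*)-β-farnesene (1.77%), the 9 after 2,5-DMP (0.841%), the 3 after 100 µM MTMT (0.281%) or the 5 after 0.01% SBT (0.466%) was called after DHB. The 16 ORs that led those lists, up to 3 a list, ranged from -0.23 to 0.61 after DHB.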

How the data were processed

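Whole olfactory mucosa of single mice was used for pS6-IP-Seq, with SMART-Seq v4 and Nextera XT libraries and single-end reads. Reads were mapped by the authors to GRCm38.p6 (GENCODE M25) using STAR, genes were quantified with RSEM and the expected counts per OR gene were deposited as whole numbers, not normalized. Beside them stand the authors' own edgeR results (log2 fold change, logCPM, likelihood ratio, p-value and FDR), which were not used. One further table, for 2-heptanone, has 6 per-sample columns that match no sample label and was not used. Samples were grouped by the labelled odorant and by control or experimental.

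The 2 groups were compared in R 4.3.3 by edgeR 4.0.16, using TMM factors over OR genes, at least 10 reads over the 6 libraries, glmQLFit and glmQLFTest, and Benjamini-Hochberg adjustment with a threshold of 0.05. The SE is the log2 fold change divided by the square root of F. The procedure was tested on simulated data. Totals were 64000 to 142652 OR reads per library. Reads carried no molecular identifiers, so Wilson intervals (scipy 1.17.1) cover counting error only. The exact permutation tests were two-sided. Equal replicate numbers gave correlations of 0.0934, 0.143 and 0.109 between deviations from the group means. The study describes litter-matched mice, but the labels do not say that equal numbers mark a litter. The main fit has no pairing term, and a fit with the replicate number as a block was an alternative.

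Positions, exons and sequences came from GENCODE M21 and GRCm38.p6, and identities from Biopython 1.88 alignments of the 1099 translated reading frames. Class I was taken as *Olfr33*, *Olfr78* and *Olfr543* to *Olfr692*. Text names called ORs, the 12 higher and 8 lower next by p, their neighbours within 100 kb, the 3 closest relatives of each called OR, the 5 ORs of the sex comparison, the 5 most abundant control ORs and up to 3 leading ORs of each other comparison. These members and lists were chosen with earlier results of these data known. Alternatives were the replicate block, the title prefix, DESeq2 1.42.0, other scalings, filters and tests, the 51-library fit and each library left out.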

Additional observations from a re-analysis of the deposited data

How the results depend on the processing

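The count of ORs higher after DHB was 6 and lay between 4 and 8 under 19 alternatives, and no OR was called lower under any of them. The count was 8 with the replicate number as a block (replicate block), with the title prefix as a term and with DESeq2, 7 with the likelihood ratio test, 4 within the prefix 4429 and 4 to 8 with each library left out. The additions were *Olfr743* and *Olfr110* (replicate block: log2 fold changes 1.18 and 1.17, edgeR adjusted p = 0.000121 and 0.000272). Under the block each of the 6 main calls passed. The study describes litter-matched mice, with odor for 1 and diluent for another, but the labels do not say that equal numbers mark a litter. Deviations from the group means correlated at 0.0934 to 0.143 between libraries of the same number. Libraries of the same number also carry the same title prefix, and why their deviations correlate was not tested. Between all others the correlations were below 0. Centring on the group means forces this on average once the same-number values are positive, so it adds no information. The cause of the added calls was not tested. The 6 called ORs gave 114 values under alternatives, 103 on the same side of the threshold and 11 past it no longer, all for *Olfr46* and *Olfr531*. Of 1326 values of the other 70 named ORs, 75 changed sign, none with a call under either setting. Library totals without TMM moved the median of all ORs to -0.08 and left the 6 calls in place. The number of called ORs whose DHB change differed from another odorant's was the same with and without TMM for each of the 9 odor groups. The class I share differed by -0.864 percentage points, from -2.12 to 0.0126 with a library left out, and reversed to 0.0126 without control replicate 1 and to 0.00528 without DHB replicate 1. The effective number of ORs was higher by 22.7 after DHB (5.57 to 44.2 with a library left out) by the inverse Simpson index but lower by the exponential of the Shannon entropy (difference -17.5, exact permutation p = 0.6).

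With 64000 to 142652 OR reads per library, ORs with small shares rested on few reads, and 53 of the 1117 ORs had under 10 reads in all and were not tested.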

Other observations

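*Olfr1384*, among the most abundant ORs of the controls, differed more between replicate numbers than between groups. It had 1111 and 1610 reads in replicate 1 (control and DHB), 4025 and 3549 in replicate 2, and 540 and 711 in replicate 3. In shares of OR reads this was 1.74% and 1.92%, 3.32% and 2.62%, and 0.398% and 0.498%, and its log2 fold change after DHB was -0.03 (SE 0.55).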
